A study of Rattus norvegicus with 56 samples.

Results

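The circadian clock genes and the clock output genes were followed on arrays of cultured rat hippocampal neurons, which had received repetitive transcranial magnetic stimulation (rTMS) or sham. The list held 10 genes: the output transcription factors Dbp, Tef and Hlf, the period genes Per1, Per2 and Per3, the cryptochromes Cry1 and Cry2, and the nuclear receptors Nr1d1 and Nr1d2 (Rev-erb alpha and beta). Probes were assigned through their RefSeq accession. No probe was matched to Hlf, so 9 genes with 12 probes were measured, of 16481 genes with a symbol on the array, and the brightest probe stood for each gene. All 9 brightest probes were well above background on each of the 55 arrays used, so none was lost to the filter on dim probes. The genes were selected on their scaled log2 signals in these same arrays, whose levels differed over time and between culture series. Differences between times and between series are therefore given as a description with no test, and only comparisons between the stimulation arms at a fixed time were tested.

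The cultures were prepared from the hippocampi of E18 embryos of Sprague-Dawley rats, with no transgene or deletion, and were labelled as neurons. A coil under the dish delivered 1 Hz stimulation or iTBS, the intermittent theta burst protocol that groups its pulses into brief high-frequency trains. For sham the coil was kept away from the dish, and untreated cultures were sampled at 0 h only. RNA was collected at 5 times after stimulation had ended (0, 2, 8, 24 or 48 h), and 1 sample was hybridized to each array, in 1 colour. Of the 16 groups, 8 had 4 arrays, 7 had 3, and 1 Hz at 2 h had 2 after the array of replicate 2 was left out: its grid was marked as badly placed and its signals correlated with the mean of the others by -0.01, against 0.97 to 0.99 for the other arrays. The sample numbers of the labels fell into 4 series, called A (1 to 18), B (22 to 36), C (37 to 54) and D (numbers with the letter D). The labels do not say what a series marks, nor that the arrays of a group came from separate cultures, so the p-values below measure the spread between these arrays. Not every arm has every series at every time: series A lacks sham and iTBS at 8 and 24 h and 1 Hz at 0 and 2 h, and series B lacks 1 Hz at 2 and 24 h and sham at 48 h.

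The circadian clock is a feedback loop of transcription that runs in most cells. The factors Clock and Bmal1 bind E-box sequences and activate the Per and Cry genes, whose proteins return to inhibit them, and they also activate Nr1d1, Nr1d2 and Dbp. The Nr1d receptors repress Bmal1 and others through the Rev-erb/ROR element, while Dbp, Tef and Hlf activate genes through D-boxes. Per1 and Per2 are in addition known as genes that respond quickly to neuronal activity and to cAMP.

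The stretches upstream of 5 of the genes are shown because these elements define the wiring of the loop, and because Dbp and Nr1d2 had the largest mean differences from 0 h among those with every pair in 1 direction. Each is the 250 bases before the annotated start, written 5′ to 3′ along the gene, from RefSeq on build GRCr8. Capitals mark CACGTG (the E-box), CACGTT (the E-prime box) and TTATGTAA or TTACGTAA (the D-box), found on either strand. The windows lie at chr1:105312006-105312255 on the plus strand for Dbp, chr15:9954784-9955033 on the plus strand for Nr1d2, chr7:115206577-115206826 on the plus strand for Tef, chr9:99496994-99497243 on the minus strand for Per2, and chr10:84229455-84229704 on the minus strand for 1 of the 2 annotated starts of Nr1d1.
Dbp: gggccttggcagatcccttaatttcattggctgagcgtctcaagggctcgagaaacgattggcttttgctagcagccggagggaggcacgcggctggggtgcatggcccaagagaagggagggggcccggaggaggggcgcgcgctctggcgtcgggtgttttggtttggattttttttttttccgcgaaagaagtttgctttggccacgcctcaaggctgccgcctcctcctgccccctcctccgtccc
Nr1d2: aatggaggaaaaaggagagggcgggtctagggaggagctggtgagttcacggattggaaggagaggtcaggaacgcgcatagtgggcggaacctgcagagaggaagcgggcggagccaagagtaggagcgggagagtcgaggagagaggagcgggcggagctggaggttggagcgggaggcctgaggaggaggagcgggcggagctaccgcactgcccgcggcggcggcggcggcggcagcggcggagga
Tef: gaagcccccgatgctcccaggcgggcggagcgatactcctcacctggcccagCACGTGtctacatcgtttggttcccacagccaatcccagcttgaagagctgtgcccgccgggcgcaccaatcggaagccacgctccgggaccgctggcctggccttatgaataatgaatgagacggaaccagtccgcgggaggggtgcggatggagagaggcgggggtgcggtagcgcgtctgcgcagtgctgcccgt
Per2: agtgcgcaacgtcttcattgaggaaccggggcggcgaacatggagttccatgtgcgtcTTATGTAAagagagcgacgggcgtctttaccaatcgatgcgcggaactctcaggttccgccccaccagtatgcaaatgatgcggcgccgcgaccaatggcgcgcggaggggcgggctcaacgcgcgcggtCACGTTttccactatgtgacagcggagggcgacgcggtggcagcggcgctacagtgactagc
Nr1d1: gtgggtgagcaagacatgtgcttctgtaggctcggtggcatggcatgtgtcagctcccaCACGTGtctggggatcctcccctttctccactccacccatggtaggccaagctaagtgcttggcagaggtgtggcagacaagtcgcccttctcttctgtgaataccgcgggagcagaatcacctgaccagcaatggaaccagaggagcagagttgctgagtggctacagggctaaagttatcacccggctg

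A window was held for 8 of the 9 measured genes. The E-box was found in 2 of them, Tef at 198 bases and Nr1d1 at 191 bases before the start, and in 5.59% of all 33469 windows of this length. The E-prime box was found in 3 of them, Per2, Cry2 and the other start of Nr1d1, and in 4.07% of all windows. The D-box was found in Per2 alone among them, 192 bases before the start, and in 0.932% of all windows. The Rev-erb/ROR element, searched as TAGGTCA or TGGGTCA, and the cAMP response element TGACGTCA were in none of the 8 and in 5.62% and 1.59% of all windows. No searched letters were found in the windows of Dbp and Nr1d2. These matches are a description of letters in a short window, and an absent match says nothing of sites elsewhere.

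Levels are given as scaled log2 signal, whose average over the probes of any array is 0, and on this scale a difference of 1 is about a 2-fold change of signal. The level of a probe was compared with the same probe on other arrays and never with another probe. To describe time, each later array was set against the 0 h array of the same arm and the same series, which gave 10 pairs for 2 h, 9 for 8 h, 8 for 24 h and 10 for 48 h. At a given later time the sham, 1 Hz and iTBS pairs of a series share no array, but the same 0 h arrays served every later time. The pairs came from 4 series, and at 8 and 24 h from B, C and D only. A count of pairs is therefore not a count of independent replicates. Over all 35699 probes tested, the median of the mean differences from 0 h was 0.00 at 2 h and -0.04 at 48 h.

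Dbp, a PAR bZIP transcription factor and a direct output of the clock, was higher at 48 h than at 0 h in all 10 pairs, by a mean of 1.64 ± 0.58 (SD, n = 10 pairs), a 3.11-fold higher signal on that scale. At 0 h the sham arrays were at 3.96 (series A), 4.24 (B), 5.75 (C) and 4.70 (D), the 1 Hz arrays at 4.39 (B), 5.75 (C) and 4.54 (D), and the iTBS arrays at 4.19 (A), 4.16 (B), 5.70 (C) and 4.16 (D). At 48 h sham was at 5.64 (A), 6.65 (C) and 6.25 (D), 1 Hz at 6.29 (A), 6.47 (B), 6.71 (C) and 6.18 (D), and iTBS at 6.12 (A), 6.86 (B), 6.64 (C) and 6.17 (D). Within every series, each stimulated or sham array at 48 h lay above each one at 0 h, and series C stood apart by starting high. The rise was 1.80 in series A, 2.39 in B, 0.93 in C and 1.73 in D, and it was 1.37 in sham (series A, C and D), 1.56 in 1 Hz (B, C and D) and 1.89 in iTBS (all 4 series). The arms thus rest on different series, and in the series that all 3 arms share the rises were 0.89, 0.96 and 0.94 (C) and 1.55, 1.63 and 2.02 (D). The mean difference from 0 h was 0.04 ± 0.32 (SD, n = 10) at 2 h, 0.29 ± 0.15 (n = 9) at 8 h and 1.32 ± 0.69 (n = 8) at 24 h, and the array was higher than at 0 h in 6 of 10, 9 of 9 and 8 of 8 pairs. No pair of series A entered the 8 and 24 h means. The timing of the rise differed between series: from 8 to 24 h Dbp differed by 1.02 in series A, 1.48 in B and 0.26 in C, and from 24 to 48 h by 1.00, 0.82 and 0.43. In series D its mean was 4.77 at 8 h, 6.27 at 24 h and 6.20 at 48 h. Among all probes tested, 3.35%, 4.75% and 4.37% were higher than 0 h in every pair at 8, 24 and 48 h, respectively, while 3.07% were lower in every pair at 24 h and 2.17% at 48 h. The genes were selected on these differences, so the counts are a description.

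The 16 groups ordered by mean Dbp level ran from iTBS at 0 h (4.55 ± 0.77, SD, n = 4) to iTBS at 48 h (6.45 ± 0.36, n = 4), with the 10 groups at 0, 2 and 8 h below the 6 at 24 and 48 h. Of the 15 steps between neighbours in that order, 1 was larger than the larger SD of the neighbours: from iTBS at 8 h (5.11) to 1 Hz at 24 h (5.96), a step of 0.85 with an SD of 0.75. Arrays of different arms in the same series at the same time lay close together, with a median range of 0.14 over 18 such sets and a widest range of 0.65. The second probe of Dbp gave a mean difference of 1.75 at 48 h, higher in 10 of 10 pairs, and correlated with the brightest probe by 0.98 over the 55 arrays. Slides held mixed times. Among pairs that shared a slide, an arm and a series, 48 h was above 8 h by 1.76 to 2.25 in 3 of 3 and above 24 h by 0.44 to 1.00 in 4 of 4. None of these pairs came from series D or set 48 h against 0 h, and over all pairs 48 h was above 24 h in 5 of 8, with the 3 pairs of series D lower by 0.04 to 0.14.

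**Figure D1:**
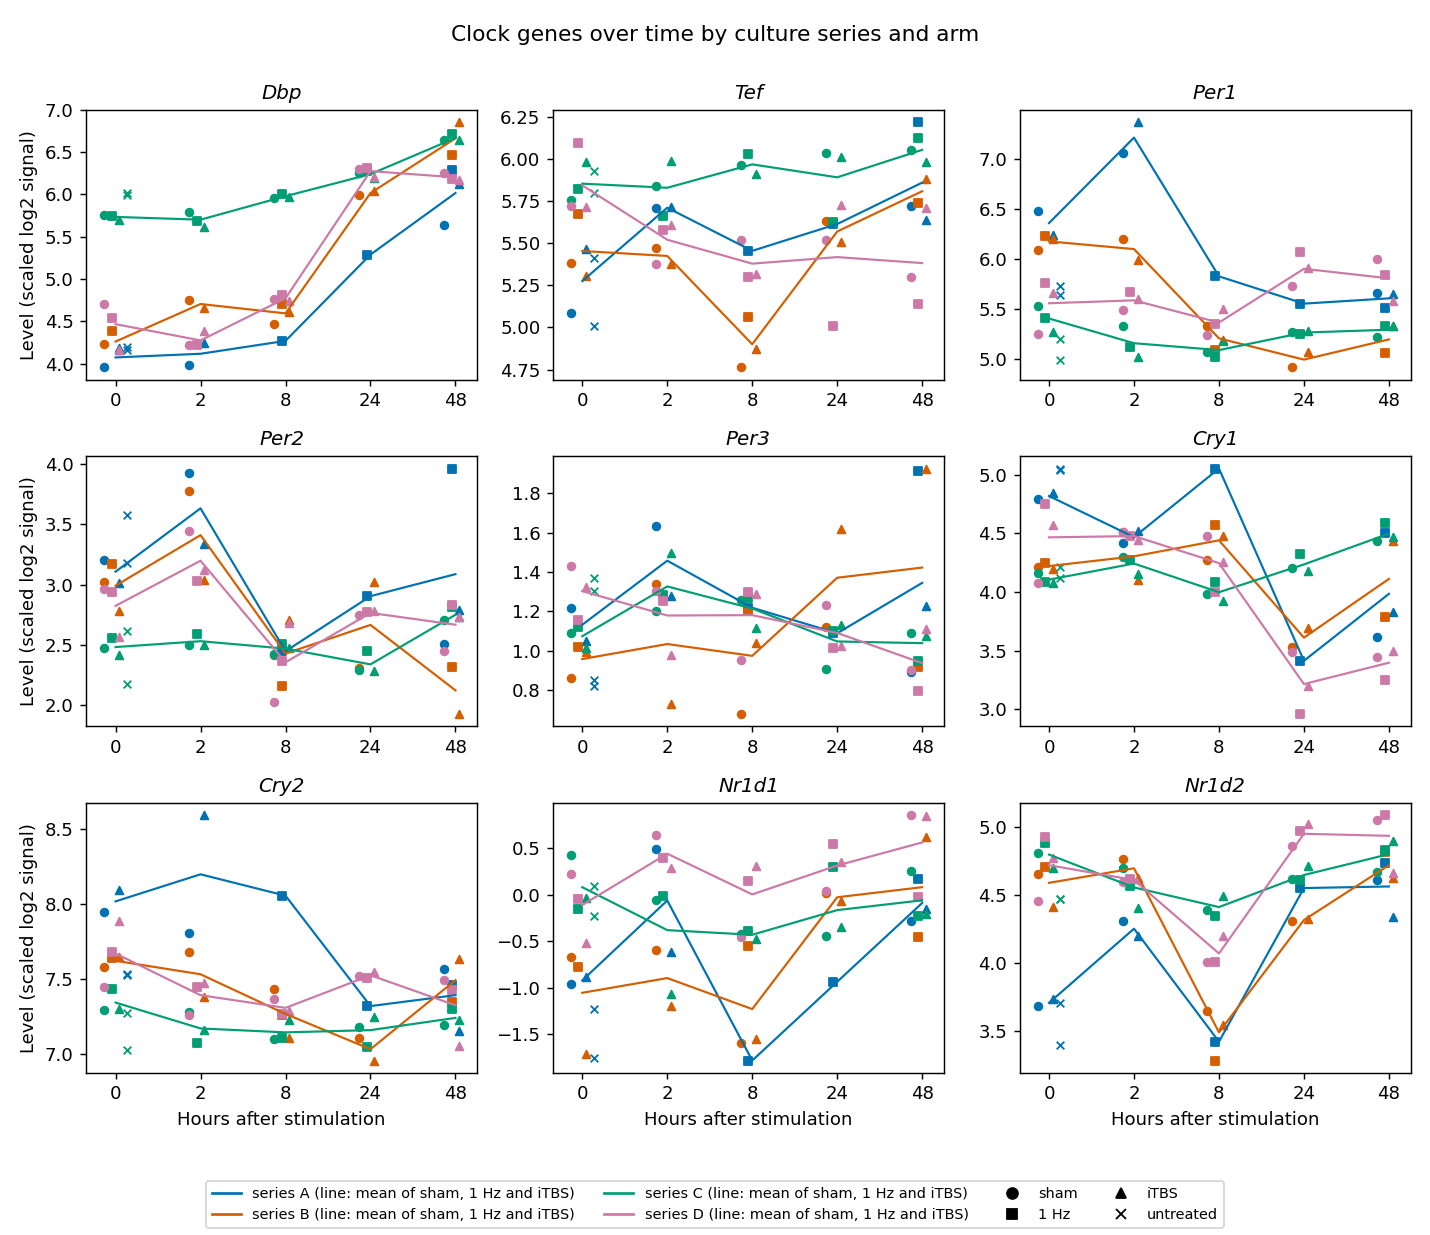
Level of the 9 clock genes (scaled log2 signal, vertical axis) against hours after stimulation (horizontal axis, 5 times evenly spaced), with a point per array, a colour per culture series, a symbol per arm, and a line through the mean of the sham, 1 Hz and iTBS arrays of each series. Between 8 and 48 h the Dbp line climbs from 4.27 to 6.02 in series A and from 5.98 to 6.67 in series C, and Nr1d2 dips at 8 h.

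The neuronal label was set against marker genes. The 7 neuronal markers (Rbfox3, Map2, Syn1, Snap25, Tubb3, Slc17a7 and Gad1) were well above background on all 55 arrays. The 5 astrocyte, the 4 oligodendrocyte and the 3 fibroblast markers on the list were too. Of the 35699 probes tested, 23433 were well above background on all 55 arrays. Detection of a marker therefore does not by itself show which cells the cultures held. The 5 astrocyte markers (Gfap, Aqp4, S100b, Slc1a3 and Aldh1l1) had a mean level between 6.12 and 6.97 at 0 h and between 6.56 and 7.96 at 48 h. It was higher at 48 h than at 0 h in 10 of 10 pairs by a mean of 0.78, with 1.07 in series A, 1.12 in B, 0.26 in C and 0.88 in D. The 5 markers differed: 3 were higher in every pair, and the mean differences by gene ran from -0.18 to 1.69. The mean of the neuronal markers differed by -0.11 and was higher in 4 of 10 pairs, that of the oligodendrocyte markers differed by -0.26 (higher in 2 of 10), and that of the fibroblast markers by 0.13 (higher in 8 of 10). By gene, the neuronal markers ran from -0.61 to 0.22, the oligodendrocyte markers from -0.52 to -0.02 and the fibroblast markers from -0.94 to 1.02. Of the 5 microglial markers Cx3cr1 and Itgam were well above background on all arrays, Aif1 on 32, C1qa on 27 and Csf1r on 7. Of the 3 endothelial and mural markers Pecam1 was on 53, Rgs5 on 12 and Cldn5 on 6, and of the 2 choroid plexus markers Ttr was on 55 and Folr1 on 54. The part of cell composition in the Dbp values was not tested, and fewer cells of a type cannot be told apart from less RNA per cell.

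Tef, the PAR bZIP relative of Dbp, had smaller and mixed differences: its mean difference from 0 h was -0.30 ± 0.36 (SD, n = 9) at 8 h and 0.07 ± 0.47 (n = 10) at 48 h. The sham arrays of series B were at 5.38, 5.47, 4.76 and 5.63 at 0, 2, 8 and 24 h, and those of series D at 5.72, 5.38, 5.52, 5.52 and 5.30 over the 5 times. By series the 48 h difference was 0.40 in A, 0.32 in B, 0.20 in C and -0.46 in D. Its group means spanned 5.37 to 5.86, and no step between neighbouring groups was larger than their SD.

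Per1, a repressor of the loop and an early response gene, was lower at 8 h than at 0 h in 9 of 9 pairs, by a mean of 0.49 (SD 0.40) and in the closest pair by 0.01, with 2.19% of all probes lower in every pair. Its course differed by series. In series A the sham arrays were at 6.48, 7.06 and 5.66 at 0, 2 and 48 h, and the iTBS arrays at 6.24, 7.37 and 5.65. In series B the sham arrays were at 6.09, 6.20, 5.33 and 4.92 at 0, 2, 8 and 24 h, and the iTBS arrays at 6.20, 5.19, 5.07 and 5.33 at 0, 8, 24 and 48 h. Series C stayed between 5.02 and 5.53 in all 3 arms, and series D was higher at 24 h than at 0 h, by a mean of 0.34. Thus the levels of series A and B were high at 0 and 2 h and low later, in sham as well as in stimulated dishes. The second probe of Per1 was lower at 8 h in 5 of 9 pairs, and correlated with the brightest by 0.69.

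Per2, the other period gene induced early, was higher at 2 h than at 0 h in 10 of 10 pairs, by a mean of 0.33 ± 0.28 (SD), while 0.336% of all probes were. The smallest of these differences was 0.02 and the largest 0.76, and series C had a mean of 0.05. The sham arrays went from 3.20 to 3.93 in series A, 3.02 to 3.78 in B, 2.48 to 2.50 in C and 2.97 to 3.44 in D. Per2 was then lower at 8 h than at 2 h in 8 of 8 pairs, by a mean of 0.55 (SD 0.56), while 1.78% of all probes were. Its peak fell at 2 h in 5 of the 8 courses with at least 4 times.

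Per3, the third period gene, had no common course. The mean difference from 0 h lay between -0.05 and 0.13 over the later times, with SDs of 0.22 to 0.40, and its 55 values ran from 0.68 to 1.93. Series and time took up 37.9% of its sum of squares, the lowest share among the 9 genes. The SD of Per3 within the combinations of series and time was 0.25, no smaller than that over all their arrays (0.25).

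Cry1, a repressor that acts late in the loop, was lower at 24 h than at 0 h by a mean of 0.57 (SD 0.72, lower in 5 of 8 pairs), and the series disagreed. In series D, at 0, 8, 24 and 48 h, sham went from 4.07 to 4.48, 3.49 and 3.44, 1 Hz from 4.75 to 4.00, 2.96 and 3.25, and iTBS from 4.57 to 4.26, 3.19 and 3.50. In series A the 1 Hz arrays were at 5.05, 3.41 and 4.51 at 8, 24 and 48 h. Series C did not fall, with a mean difference of 0.13 at 24 h and 0.39 at 48 h. At 24 h every array of series A, B and D lay below the 0 h arrays of its series, and every array of series C lay above them.

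Cry2, the second cryptochrome, was lower at 8 h than at 0 h in 9 of 9 pairs, by a mean of 0.31 (SD 0.19), and at 48 h in 9 of 10, by 0.30 (SD 0.34). No pair of series A entered the 8 h count, and 2.19% of all probes were lower at 8 h in every pair. The single 8 h array of series A, 1 Hz at 8.06, lay between the 0 h values of sham (7.94) and iTBS (8.09). Sham arrays were at 7.94, 7.58, 7.29 and 7.45 in series A to D at 0 h and at 7.43, 7.10 and 7.36 in series B to D at 8 h. The decrease was small beside the differences between series, of which series A was the highest at 0 h, with a mean of 8.02 against 7.34 in series C.

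Nr1d2, a repressor of Bmal1, had its trough at 8 h in 7 of the 8 courses with at least 4 times. It was lower at 8 h than at 0 h in 9 of 9 pairs, by a mean of 0.71 (SD 0.38), with 2.19% of all probes lower in every pair. It was higher at 24 h than at 8 h in 9 of 9, by 0.66 ± 0.34 (SD), with 3.28% of all probes higher in every such pair. The sham arrays at 0, 8 and 24 h were at 4.66, 3.65 and 4.31 in series B, 4.81, 4.39 and 4.62 in C, and 4.46, 4.01 and 4.86 in D. The iTBS arrays were at 4.41, 3.54 and 4.32 in B, 4.70, 4.50 and 4.72 in C, and 4.78, 4.20 and 5.02 in D, so the dip was shallow in series C and deep in B in both arms. In every series with pairs at 8 h, all arrays at 8 h lay below all at 0 h, and in series A the single 8 h array, 1 Hz at 3.42, lay below the 0 h values of sham (3.68) and iTBS (3.73). At 24 and 48 h the mean differences from 0 h were -0.02 ± 0.26 (n = 8) and 0.25 ± 0.35 (n = 10). Pairs on 1 slide gave 24 h above 8 h by 0.22 to 1.13 in 3 of 3 pairs. The second probe, dimmer and well above background on 50 arrays, was lower at 8 h in 8 of 9 pairs, by a mean of 0.57. Its correlation with the brightest probe over the 55 arrays was only 0.44, and its mean difference at 48 h was -0.09.

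Nr1d1, the paralog of Nr1d2, had levels from -1.78 to 0.85 and wide gaps between arms of the same series and time (median range 0.67). Its probe was dim, with a processed signal from 22.3 to 313 and a median of 80.9 over the 55 arrays. Nr1d1 was higher at 48 h than at 0 h in 7 of 10 pairs, by a mean of 0.57 ± 0.79 (SD), with 1.33 in series B and -0.14 in series C. The mean was 0.30 with normexp correction and quantile normalization, and 0.37 without the iTBS array of series B at either time. At 8 h in series B it was at -1.59 in sham, -0.55 in 1 Hz and -1.55 in iTBS, which shows how far arms could differ in a single series.

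**Figure D2:**
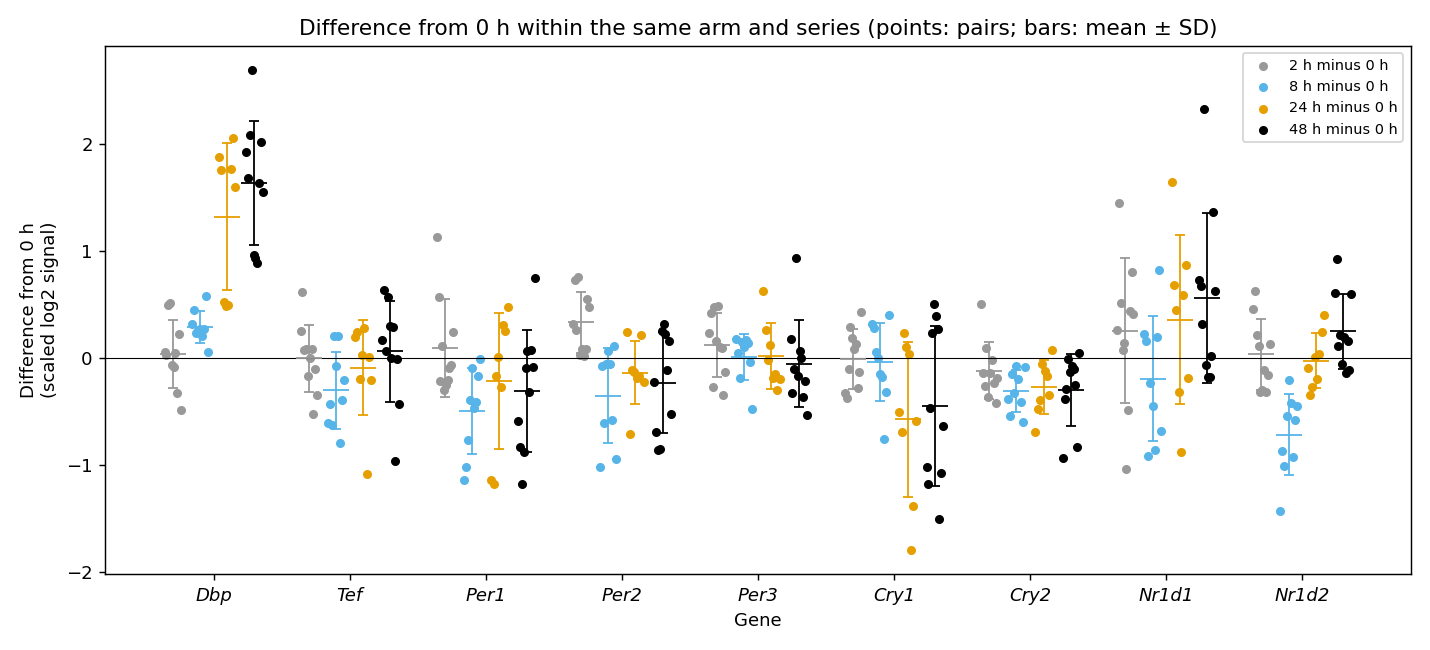
Difference of each later array from the 0 h array of the same arm and series (scaled log2 signal, vertical axis) for each gene (horizontal axis), with a point per pair, a colour per time, and bars for the mean ± SD of 8 to 10 pairs. All Dbp points at 8, 24 and 48 h lie above 0, and all Nr1d2 points at 8 h lie below it.

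Over the 36 combinations of a gene and a later time, 7 had every pair in 1 direction: Dbp at 8, 24 and 48 h and Per2 at 2 h upward, and Per1, Cry2 and Nr1d2 at 8 h downward. With normexp background correction and quantile normalization 3 of these 7 stayed, Nr1d2 at 8 h and Dbp at 24 and 48 h. On the main scale 0.336%, 3.35%, 4.75% and 4.37% of all probes were higher than 0 h in every pair at 2, 8, 24 and 48 h. The shares lower in every pair were 0.269%, 2.19%, 3.07% and 2.17%. Series and time together took up 98.4% of the sum of squares of Dbp over the 51 sham, 1 Hz and iTBS arrays, 94.9% of Per1, 93.2% of Nr1d2, 86.6% of Cry1, 81.6% of Cry2, 78.0% of Tef, 73.1% of Nr1d1 and 70.7% of Per2, beside a median of 71.4% over all probes tested. The arm took up 0.03% (Cry1) to 1.89% (Nr1d1), beside a median of 1.49%. A share grows with the number of groups, here 20 for series and time and 3 for the arm. Each share is therefore read against its own median over all probes. Because series, time and slide partly coincide, their shares cannot be told apart in full.

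**Figure D3:**
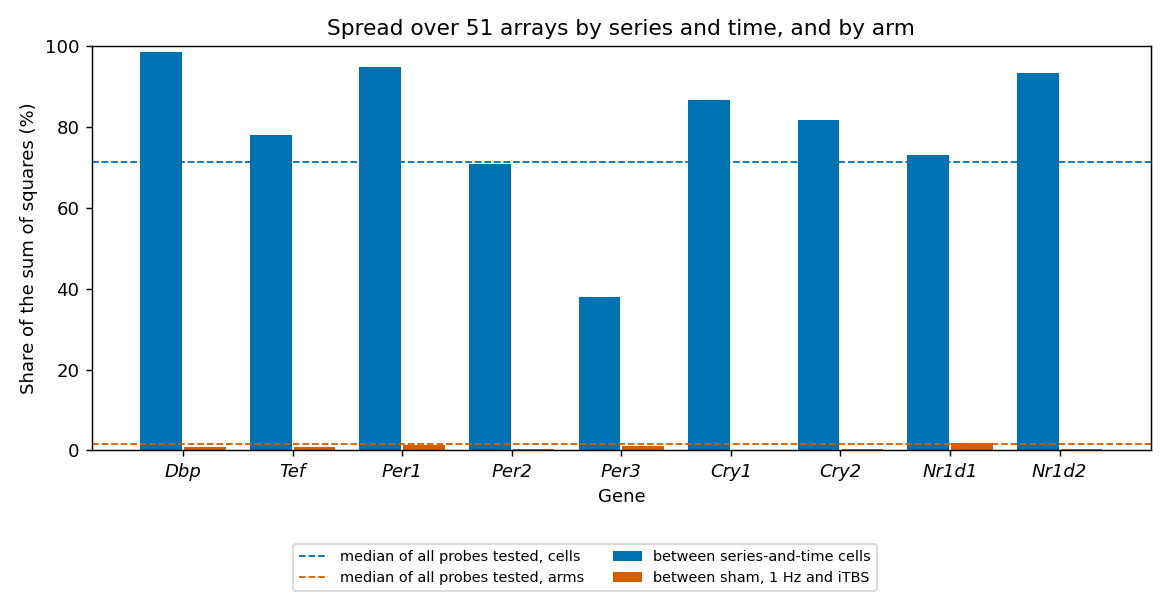
Share of the sum of squares over 51 arrays (%, vertical axis) that lies between the 20 combinations of series and time (blue bars) and between sham, 1 Hz and iTBS (orange bars) for each gene (horizontal axis). Dashed lines give the medians of all probes tested, 71.4% and 1.49%. Dbp (98.4%), Per1 (94.9%) and Nr1d2 (93.2%) have the tallest bars, and the arm shares reach at most 1.89%.

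The 24 other clock genes on the list stood for activators, kinases, ligases and other repressors, and 20 of them had a tested probe. Between 0 and 48 h none of the 20 moved in 1 direction in every pair. At 8 h 1 of the 20 was higher than at 0 h in every pair and 2 were lower, beside 3.35% and 2.19% of all probes. The higher one was Creb1, which binds the cAMP response element (9 of 9 pairs, mean 0.45 ± 0.41, SD). The protease Usp2 was 1 of the 2 lower ones (9 of 9, mean -0.21 ± 0.13). Creb1 and Usp2 were named after their values were seen. Arntl (Bmal1), the partner of Clock, changed by a mean of -0.04 ± 0.36 at 48 h, with -0.36 in series A and 0.34 in C, and was higher in 9 of 10 pairs at 2 h by a mean of 0.16. Clock changed by -0.31 ± 0.51 at 48 h and Npas2, which can stand in for Clock, by 0.43 ± 0.32, higher in 8 of 10 pairs. Nfil3, a repressor at D-boxes, differed by -0.29 ± 0.74 at 48 h, the E-box repressor Bhlhe40 by -0.10 ± 0.94, Ciart, a repressor of Clock and Bmal1, by -0.39 ± 1.55, and the receptor Rorb by 0.56 ± 1.14. For the last 4 of these genes series B and C had opposite signs, as for Ciart with -2.25 in B and 1.15 in C. No probe was matched to Rora or Bhlhe41.

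Levels of genes regulated by neuronal activity were set beside Per1. Over the 20 combinations of series and time, after the mean of each series was removed, the level of Per1 correlated by 0.92 with Npas4, 0.88 with Egr1, 0.87 with Fos, 0.76 with Nr4a1 and 0.58 with Arc, and by -0.85 with Txnip, a gene that responds to glucose. Per1 was not alone in this: Npas4 correlated by 0.79 with Per2 and by 0.70 with Cry2. With the other clock genes Npas4 ran from -0.44 (Dbp) to 0.31 (Nr1d2). Arc correlated by 0.76 with Per2, and Txnip by -0.71 with Cry2, -0.69 with Per2 and 0.73 with Dbp. The 20 combinations share arrays and slides, and these correlations are a description. Between 0 and 2 h Fos differed by 1.97 in series A and -0.96 in series C, and Per1 by 0.86 and -0.25. Between 0 and 8 h Npas4 was lower in 9 of 9 pairs, by a mean of 2.40 (SD 1.40). The part of neuronal activity in the Per1 values was not tested.

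The genes whose pattern over the same 20 combinations was most like that of Dbp, among 10529 genes detected on all arrays, were Serping1, RT1-M3-1, Acads, Nat8f1 and Trim45, each with a correlation of 0.97, and they were higher at 48 h in 10 of 10 pairs. The least like were Armc6 (-0.95), Srsf6 (-0.92) and Magee1 (-0.92). For the mean of the 9 clock genes the most like were Eda (0.90), Ramp3 (0.90), Pdgfrb (0.88), Tmem14a (0.88) and Aig1 (0.87), and the least like Ormdl1 (-0.88), Chaf1b (-0.88) and Sdc1 (-0.87). Rbm3, which rises in the cold, correlated with Dbp by -0.91 and was lower at 48 h in 10 of 10 pairs, by a mean of 1.36 (SD 0.42). Its correlations with the other clock genes measured ran from -0.71 (Nr1d1) to 0.64 (Cry1).

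Each protocol was set against time-matched sham to ask whether rTMS moved the clock genes. None of the 9 genes passed in any of the 18 comparisons, which were 1 Hz against sham and iTBS against sham at 5 times, iTBS against 1 Hz at 5 times, untreated against sham, and each protocol averaged over time against sham. In limma with Benjamini-Hochberg adjustment over all 35699 probes the smallest adjusted p was 1.00, and 0 of 162 tests had an unadjusted p under 0.05, the smallest being 0.0835 (Per3, iTBS against sham at 48 h). Among all probes 0.0056% passed in 1 Hz against sham at 2 h, iTBS against sham at 8 h and iTBS against 1 Hz at 2 h, 0.0028% in both comparisons of 1 Hz at 8 h and in untreated against sham, and 0% in the others, and 1.56% of tests had an unadjusted p under 0.05. The moderated F tests of whether the change from sham differed between times passed for none of the 9 genes in 1 Hz or iTBS, with unadjusted p from 0.251 to 0.992 in limma with no block. With series at each time as a block none of the 9 passed these F tests either (smallest adjusted p = 0.326, Per2 in iTBS). The unadjusted p of the F tests were then 0.0284 (Per2) and 0.0298 (Nr1d1) in iTBS and 0.0408 (Tef) and 0.0446 (Nr1d1) in 1 Hz. All others were 0.0571 or more. Among all probes 0% passed these F tests in either fit.

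The Dbp values show how these comparisons were spread. At 48 h sham was at 6.18 ± 0.51 (SD, n = 3), 1 Hz at 6.41 ± 0.23 (n = 4) and iTBS at 6.45 ± 0.36 (n = 4), and the groups overlapped. The 10 differences of Dbp from sham lay between -0.22 and 0.27, with SEs of 0.47 to 0.58, so their 95% intervals reached from -1.32 to 1.43. For Per3, the gene with the smallest SE (0.20 to 0.24), the intervals reached from -0.64 to 0.80, and for Nr1d1 from -1.66 to 1.28. These intervals hold the spread between series, and with series at each time as a block the SEs for Dbp were 0.11 to 0.15 and its differences -0.11 to 0.19. Averaged over time, the differences from sham lay between -0.19 (Nr1d1, iTBS) and 0.09 (Per3, iTBS). Per2 in iTBS against sham at 8 h was the single case of 144 tests at a fixed time in which groups did not overlap (2.62 ± 0.13 against 2.29 ± 0.23, n = 3 each, adjusted p = 1.00), while 2.78% of all probes did not overlap in that comparison.

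**Figure D4:**
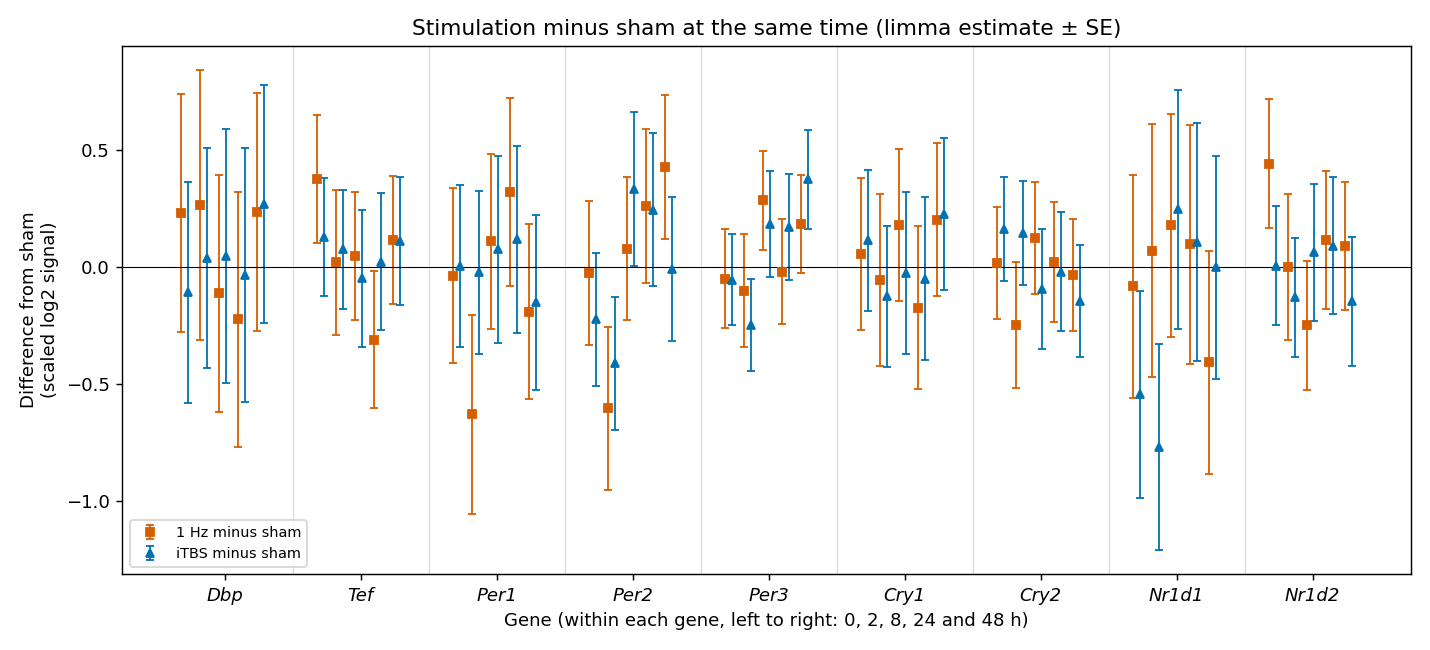
Difference of 1 Hz (orange) and iTBS (blue) from sham at the same time (scaled log2 signal, vertical axis; limma estimate ± SE) for each gene (horizontal axis), with the 5 times from left to right within a gene. The points scatter around 0 between -0.77 and 0.44, and no difference passed.

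To take out differences between series, the comparisons were repeated within each series at each time. With that block, 0 of 162 tests passed (smallest adjusted p = 0.173, limma), and 11 (6.79%) had an unadjusted p under 0.05, beside 6.14% of all tests over all probes. Among all probes 0.176% passed with the block in untreated against sham, 0.0308% in iTBS against sham at 0 h, and 0.0056% or fewer in the others. The lowest of these unadjusted values were found for Per1 in untreated against sham, Per2 in 1 Hz against sham at 48 h and Nr1d1 in iTBS against sham at 2 h, which were named after their values were seen. The Nr1d1 probe was dim, with a median processed signal of 80.9. At 2 h Nr1d1 was at 0.49 (series A), -0.60 (B), -0.06 (C) and 0.64 (D) in sham and at -0.62, -1.20, -1.07 and 0.29 in iTBS, lower with iTBS in 4 of 4 series by a mean of 0.77 (SE 0.23, adjusted p = 0.380 with the block in limma). Over the alternatives, which include fits with and without a block, the difference ranged from -0.77 to -0.42, the smallest with normexp correction and quantile normalization. In that comparison 11.4% of all probes had an unadjusted p under 0.05 with the block. At 48 h Per2 was higher in 1 Hz than in sham in 3 of 3 shared series, by 1.45 in A, 0.11 in C and 0.38 in D, and 14.4% of all probes had an unadjusted p under 0.05 there. Without the 1 Hz array of series A the difference in the fit with no block was 0.10.

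The untreated cultures came from series A and C only. Their Dbp levels were at 4.16 and 4.20 in series A and 5.99 and 6.02 in C, against 3.96 and 5.75 in the sham array of the same series, so the difference between series was larger than that between sham and untreated. Per1 was at 5.64 and 5.73 in A and 4.98 and 5.20 in C, against 6.48 and 5.53 in sham. The mean of the untreated arrays was lower than the sham array by 0.80 in A and by 0.44 in C. The estimate with the block, in which the 1 Hz and iTBS arrays of each series also enter, was -0.46 (SE 0.13, adjusted p = 0.231 in limma) and did not pass. The group means were 5.39 ± 0.35 (SD, n = 4) in untreated and 5.84 ± 0.55 (n = 4) in sham. With no block the difference was -0.45, and it was -0.24 without the sham array of series A.

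For the 20 other clock genes the same comparisons gave 0 passes of 360 tests in limma, with 1 unadjusted p under 0.05 without the block and 23 with it. The block raised this share over all probes too, from 1.56% to 6.14% of tests. Their median difference lay between -0.13 and 0.07 over the 18 comparisons.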

How the data were processed

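The deposited scanner files give each spot as an intensity (Cy3, Agilent Feature Extraction 12.0.3.1 per the file headers), background-corrected by the scanner software and not normalized between arrays. The authors also deposited a series matrix of z-scores, a score per probe that equalled the z-score of the log10 processed signal within rounding. Here the log2 processed signal of noncontrol spots without outlier flags was averaged per probe, converted to a z-score on each array, and put back on a log2 scale with the arrays' median SD, 4.06. Probes had to be well above background on at least 3 of the 55 arrays, which left 35699. Groups were compared with limma 3.58.1 in R 4.3.3, with all 16 groups in 1 fit, 39 residual degrees of freedom, and Benjamini-Hochberg adjustment over all probes at 0.05. Between 66.1% and 81.8% of noncontrol spots were well above background, none was saturated, and the number of arrays limits the precision. Alternatives changed scaling, background correction, filter, probe choice, blocks and arrays. The fit was tested on simulated data.

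The measured genes were named through RefSeq (assembly GRCr8, while the arrays were designed on rn4), each by its brightest probe. The members, the other clock genes, the markers and the context genes were chosen with earlier results of these data known, and some listed genes are not reported here. Other genes were named when their mean over series and time was most or least correlated with that of Dbp or of the members.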

Additional observations from a re-analysis of the deposited data

Results flagged for a closer look

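Over 72 combinations of a gene and a group (9 genes in the same 8 groups of 4 arrays), 5 held an array set apart from the other three by Dixon's criterion. That criterion marks about 3.6 of 72 by chance if the arrays of a group are exchangeable, which they are not where a group holds 1 array of each series. Dbp in iTBS at 0 h was at 5.702 in series C and between 4.16 and 4.19 on the others, and the series C arrays of sham and 1 Hz at 0 h were also at 5.75. Per2 in iTBS at 48 h was at 1.929 in series B, with the others between 2.73 and 2.79. Per3 in 1 Hz at 48 h was at 1.914 in series A, with the others between 0.79 and 0.95. Per3 in iTBS at 0 h was at 1.322 in series D, with the others between 0.99 and 1.05. Cry2 in 1 Hz at 8 h was at 8.055 in series A, with the others between 7.11 and 7.27.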

How the results depend on the processing

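The counts of clock genes that passed were 0 in each stimulation comparison under every alternative and with each of the 55 arrays left out, except with all 56 arrays. With the badly gridded array added, 4 genes passed in 1 Hz against sham and 5 in iTBS against 1 Hz, all at 2 h, the time of that array, where 53.2% and 51.2% of all probes passed. Of the 36 combinations of gene and later time, 7 had all pairs in 1 direction, against 3 with normexp correction and quantile normalization (all 3 among the 7), and 5 to 7 with the other alternatives. Leaving out arrays gave 7 to 9, and the shares over all probes given above are for the main scale only. The mean difference of Dbp at 48 h stayed between 1.39 and 1.69 under the alternatives and that of Nr1d2 at 8 h between -0.75 and -0.60. The normexp alternative used the median spot signal. The excluded array has no 0 h partner, so it entered no pair.

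The replicate numbers of the titles did not pair the arrays: after subtraction of group means, 2 arrays with the same number had an average correlation of 0.16 (from -0.46 to 0.78), and 2 of the same series 0.40. With the replicate block 0 clock genes passed in each comparison, as without it.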

Other observations

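Genes that respond to culture conditions also differed over time. Cirbp, which like Rbm3 rises in the cold, was lower than at 0 h in 8 of 8 pairs at 24 h (mean -0.66 ± 0.25, SD) and in 10 of 10 at 48 h (-0.63 ± 0.30). Txnip was higher in 9 of 9 pairs at 8 h (1.93 ± 1.09) and in 10 of 10 at 48 h (1.93 ± 1.45), with 4.48 in series B and 0.94 in C at 48 h. Of the glucocorticoid-induced genes, Sgk1 was lower in 9 of 9 pairs at 8 h (-0.39 ± 0.30), whereas Fkbp5 (0.23 ± 0.37) and Tsc22d3 (-0.03 ± 0.15) had pairs in both directions. Among the activity-regulated genes Arc differed by 1.35 and Nr4a1 by 2.04 at 2 h in series A, and by -0.10 and -0.32 in series C. These differences were not tested.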
